A study of Mus musculus with 24 samples.

Results

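The 8 members described here are genes of the retinoic acid pathway and related aldehyde dehydrogenases, in blood-forming cells of mouse bone marrow. They are the aldehyde dehydrogenases Aldh1a1, Aldh1a7, Aldh1a3 and Aldh2, the receptors Rara, Rarb and Rarg, and the hydroxylase Cyp26b1. They were picked by symbol from the 27179 Entrez gene IDs of the count table, and all 8 were found. The choice was made with earlier results of these same libraries known, so the levels and fold changes of these genes are given as a description, without p-values.

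The data are 24 poly(A) RNA-seq libraries from 8 mice: 4 mice with Phf6 deleted and 4 control mice, with 1 of each in every litter. Mice are numbered by their litter, and values listed per library run over litters 1 to 4. The protein PHF6 is a nuclear zinc finger factor encoded on the X chromosome and mutated in leukaemia. Each mouse gave 3 sorted populations. They were stem cells of the blood system (HSC), the multipotent progenitors below them (MPP), and a progenitor fraction of narrower potential that the labels call HPC-1. Every mouse had the strain label Phf6lox/Y;Tie2-creTg/+, which gives males with a floxed Phf6 allele and a Cre transgene driven by the Tie2 promoter, active in endothelial and blood-forming cells. That label stood for deleted and control mice alike, so it does not say whether the controls carried Cre, and the ages of the mice were not given in the sources used here. Crushed marrow was depleted of CD3, B220, GR1 and TER119 positive cells and the populations were sorted by their surface cKIT, SCA1, CD48 and CD150. SMART-Seq v4 and Nextera XT libraries were made from HSC and MPP, and TruSeq Stranded libraries from HPC-1. The kit and the HPC-1 population cannot be told apart, so HPC-1 levels were not set against those of HSC or MPP.

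Retinoic acid is made from vitamin A. Retinol dehydrogenases turn retinol into retinal, and retinal dehydrogenases of the ALDH1A family oxidise retinal to retinoic acid. The acid binds nuclear receptors (RARA, RARB and RARG, each paired with a retinoid X receptor) that sit on response elements in target genes, of which Rarb itself is a well-studied one. CYP26 enzymes hydroxylate retinoic acid and so end the signal. In the haematopoietic system the pathway is known for its part in stem cell quiescence and in granulocyte differentiation, and aldehyde dehydrogenase activity has long been used to enrich stem cells.

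Library totals ran from 9658167 to 27786830 counts. Levels are given in CPM, counts scaled to TMM-normalised library size, and 3 counts corresponded to between 0.108 and 0.302 CPM. Phf6 averaged 56.0 ± 17.8 CPM in deleted HSC and 216 ± 23.9 CPM in control HSC (SD, n = 4 each). Its log2 fold change there was -1.95 ± 0.22 (SE), and it was lower by 1.82 ± 0.18 in MPP and by 2.08 ± 0.16 in HPC-1 on the log2 scale. Slamf1, which encodes CD150, averaged 1.90 CPM in control MPP and 67.4 CPM in control HSC. Both SMART-Seq libraries of the deleted mouse of litter 3 stood apart. Its HSC library held 14212 detected genes, against 14759 to 15677 in the other deleted HSC, and its MPP library held 14710, against 16121 to 16479 in the other deleted MPP. Slamf1 in its HSC library was 8.99 CPM, against 37.8 to 52.7 CPM in the other deleted HSC. The sum of 10 neutrophil and monocyte markers was 9882 CPM in HSC and 12589 CPM in MPP of the deleted mouse of litter 4. The other deleted libraries had at most 3699 CPM in HSC and 2915 CPM in MPP. This sum varied widely among controls too, from 543 to 6879 CPM in HSC and from 176 to 2637 CPM in MPP. Control HSC of litter 1 had the highest sum of 12 endothelial and stromal markers, 685 CPM, against 8.69 to 76.3 CPM in deleted HSC and 15.9 to 30.4 CPM in the other control HSC. In bulk libraries, fewer cells of a type and less RNA per cell cannot be told apart, and this holds for every level below.

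The genes lie on 7 chromosomes of the mm10 build (RefSeq annotation of GRCm38.p6). Aldh1a1 (Entrez 11668; chromosome 19, 20492583 to 20643463) and Aldh1a7 (26358; chromosome 19, 20692953 to 20727556) are neighbours with 49489 bases between them. Aldh1a3 (56847) is on chromosome 7 (66390892 to 66427477) and Aldh2 (11669) on chromosome 5 (121566027 to 121593824). Rara (19401) is on chromosome 11 (98927800 to 98974942), Rarb (218772) on chromosome 14 (16430839 to 17082331) and Rarg (19411) on chromosome 15 (102234938 to 102257522). Cyp26b1 (232174) is on chromosome 6 (84571414 to 84593908).

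A pair of close paralogs has to be kept apart by the read counting. The coding sequences of Aldh1a1 and Aldh1a7, 1506 bases each in the GENCODE M21 transcripts, were 91.71% identical in a global alignment and differed at 126 positions when compared base by base without gaps. Of the 1427 windows of 80 bases in the Aldh1a1 coding sequence, 37 (2.59%) also occurred unchanged in an Aldh1a7 transcript, and none occurred in Aldh1a3, Aldh1a2 or Aldh2. The window that differed most, coding bases 320 to 399 counted from the start codon, shows what a read of this study's length (80 bases) has to tell the genes apart, with the 19 differing bases in capitals.
Aldh1a1: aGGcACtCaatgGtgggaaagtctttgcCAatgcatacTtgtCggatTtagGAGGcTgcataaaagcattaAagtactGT
Aldh1a7: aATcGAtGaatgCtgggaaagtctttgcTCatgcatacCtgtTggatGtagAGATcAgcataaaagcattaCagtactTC
At coding bases 226 to 305 the sequences had 0 differences, so an 80-base read from there fits both genes equally. How the authors treated reads that fit more than 1 gene was not given in the sources used here, and the values of both genes are uncertain to that extent.

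The resemblance extends upstream. The 250 bases before the start of the Aldh1a7 gene and of an Aldh1a1 transcript that starts inside the annotated gene span (RefSeq promoter windows, GRCm38.p6) shared an identical stretch of 65 bases, in capitals. They are shown because the paralogs share this stretch while their counts in the libraries, given below, ran differently. The Aldh1a1 window is chr19:20601718-20601967 on the plus strand and the Aldh1a7 window chr19:20727557-20727806 on the minus strand.
Aldh1a1: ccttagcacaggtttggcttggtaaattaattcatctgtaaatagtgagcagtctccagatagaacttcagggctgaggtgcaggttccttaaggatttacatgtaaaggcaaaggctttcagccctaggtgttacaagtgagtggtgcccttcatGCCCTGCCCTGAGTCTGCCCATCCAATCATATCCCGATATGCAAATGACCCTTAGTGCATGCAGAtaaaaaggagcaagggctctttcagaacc
Aldh1a7: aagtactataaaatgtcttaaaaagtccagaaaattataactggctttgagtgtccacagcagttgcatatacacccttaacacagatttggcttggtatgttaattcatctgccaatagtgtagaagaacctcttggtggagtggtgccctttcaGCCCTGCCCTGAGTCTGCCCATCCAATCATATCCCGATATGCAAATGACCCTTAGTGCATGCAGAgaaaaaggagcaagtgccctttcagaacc

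Rarb carries the textbook retinoic acid response element, a direct repeat with a spacer of 5 bases (DR5). The search took 2 hexamers in the same orientation with 5 bases between them, on both strands. Each hexamer could be AGGTCA or AGTTCA, as well as GGGTCA or GGTTCA. It matched 32 of 32851 promoter windows of 300 bases (0.0974%), and 1 of the 11 windows of the 6 members in the promoter table, that of Rarb. The match lies 53 to 37 bases before the start. The 250 bases before that start, chr14:16575477-16575726 on the minus strand, are shown with the element in capitals.
Rarb: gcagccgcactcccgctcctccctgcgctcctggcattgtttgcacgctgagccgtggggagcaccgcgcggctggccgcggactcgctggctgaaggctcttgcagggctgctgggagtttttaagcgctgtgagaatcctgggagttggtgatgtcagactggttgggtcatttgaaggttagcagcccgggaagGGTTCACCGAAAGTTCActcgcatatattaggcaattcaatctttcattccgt
A match is a description of the letters, and the absence of one in the other windows says only that these letters are not there.

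Aldh1a1, a retinal dehydrogenase, was several times lower in MPP than in HSC in both genotypes. Its level was also higher in Phf6-deleted MPP than in control MPP in all 4 litters, a difference that did not pass the threshold over all genes in edgeR. MPP of deleted mice 1 to 4 held 46.0, 49.4, 42.7 and 18.4 CPM of it, and MPP of their control littermates 15.3, 12.4, 10.9 and 10.1 CPM. Every deleted MPP library lay above every control MPP library, and the deleted mouse of litter 4 was the one closest to the controls. The means were 39.1 ± 14.1 CPM in deleted MPP and 12.2 ± 2.31 CPM in control MPP (SD, n = 4 each). The fitted log2 fold change was 1.68 ± 0.31 (SE), or 3.20-fold, and within litters 1 to 4 the ratio of deleted to control was 3.01, 3.99, 3.92 and 1.83. Without the libraries that stood apart, those of deleted mice 3 or 4, it was 1.64 or 1.91 on the log2 scale.

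**Figure D1:**
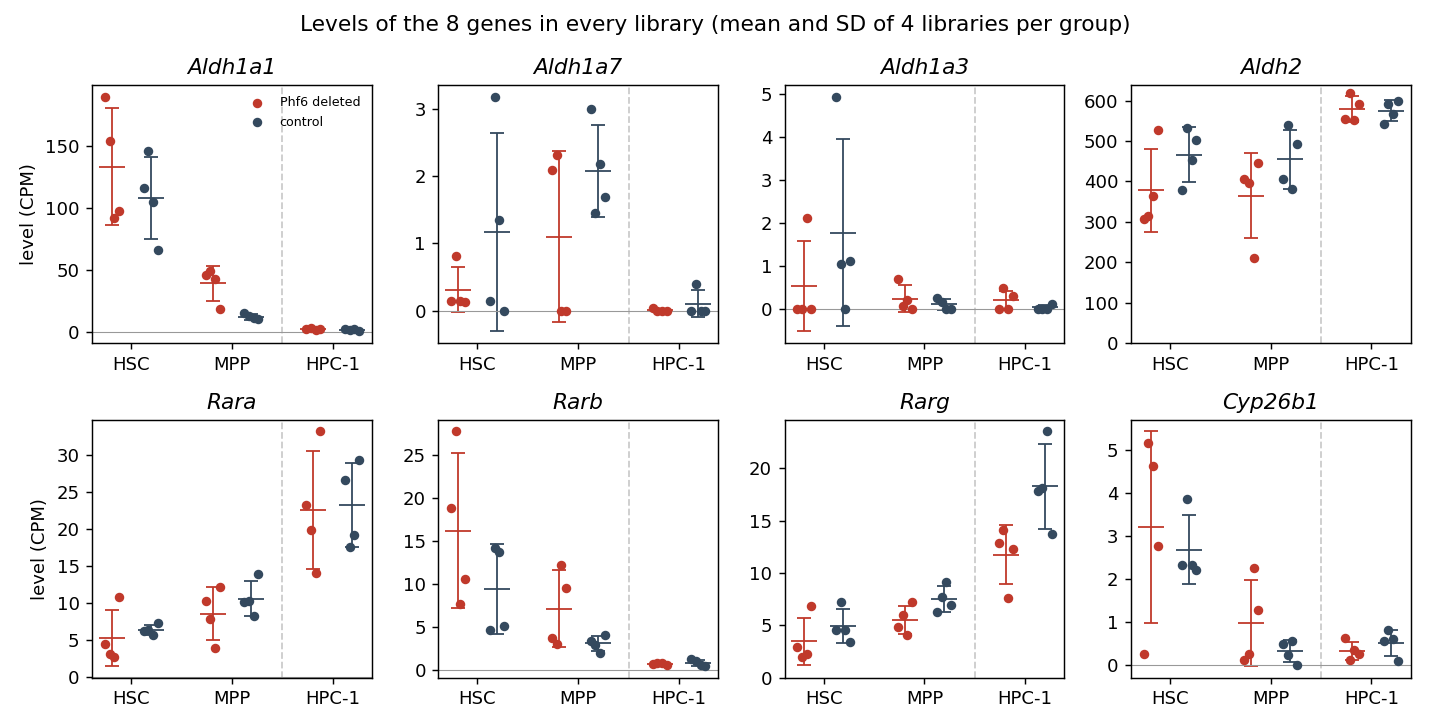
Levels of the 8 genes (CPM, vertical axes from 0 with a separate scale per gene) in deleted (red, left) and control (dark, right) libraries of HSC, MPP and HPC-1. Points are libraries, bars the mean and SD of 4, and the dashed line sets off HPC-1, which was made with another kit. Aldh1a1 in MPP is the panel in which deleted libraries (18.4 to 49.4 CPM) lie wholly above controls (10.1 to 15.3 CPM).

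In HSC the groups of the same mice overlapped. Deleted HSC held 189.7, 154, 91.7 and 97.7 CPM of Aldh1a1, and control HSC 116, 146, 105 and 66.0 CPM. The deleted library was the higher of its litter in 3 of 4 litters, and the log2 fold change was 0.31 ± 0.28. HPC-1 held little Aldh1a1, with 2.19, 2.77, 1.5 and 2.26 CPM in deleted and 2.58, 1.16, 2.29 and 0.533 CPM in control libraries, which overlapped (0.41 ± 0.57). The deletion effect was larger in MPP than in HSC by 1.38 ± 0.44 on the log2 scale, and that of HPC-1 differed from MPP by -1.28 ± 0.55 and from HSC by 0.12 ± 0.51. None of these differences between populations passed the threshold over all genes.

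Aldh1a1 was lower in MPP than in HSC of every mouse. In deleted mice it averaged 39.1 ± 14.1 CPM in MPP and 133 ± 47.0 CPM in HSC (SD, n = 4 each). The fitted log2 fold change was -1.79 ± 0.35, or 3.46-fold lower. Within deleted mice 1 to 4 it was 4.12, 3.12, 2.15 and 5.31 times lower in MPP. In control mice it averaged 12.2 ± 2.31 CPM in MPP and 108 ± 33.1 CPM in HSC. The fitted log2 value was -3.16 ± 0.24, or 8.94-fold lower in MPP. Within control mice 1 to 4 it was 7.57, 11.8, 9.64 and 6.56 times lower in MPP. MPP and HSC did not overlap in either genotype, and each deleted mouse had a smaller ratio than any control mouse. The share of all genes with ratios apart in this way was not taken, so nothing is read from it. For Aldh1a1 the difference of deletion effects between MPP and HSC did not pass the threshold over all genes.

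**Figure D2:**
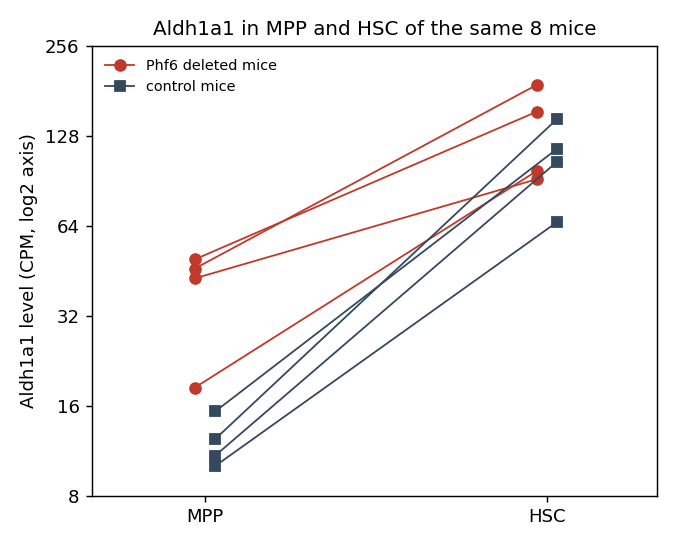
Aldh1a1 level (CPM, log2 axis) in MPP and HSC of the same mice, each line being 1 mouse (red circles, 4 deleted mice; dark squares, 4 control mice). Deleted mice lie higher in MPP (18.4 to 49.4 CPM, against 10.1 to 15.3 CPM in controls) and overlap with controls in HSC (91.7 to 189.7 CPM, against 66.0 to 146 CPM).

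Markers of stem cells were set beside these values. Slamf1 was at 3.50, 1.13, 0 and 0.407 CPM in deleted MPP and at 1.96, 2.75, 1.5 and 1.38 CPM in control MPP, so 1 deleted library lay above the controls and 3 lay below them. The sum of 6 megakaryocyte and platelet markers, all of them detected, was 91.2 to 165 CPM in deleted MPP and 113 to 138 CPM in control MPP. That sum did differ between the populations, with 91.2 to 165 CPM in MPP and 725 to 1325 CPM in HSC of deleted mice, and 113 to 138 CPM in MPP and 817 to 1307 CPM in HSC of control mice. Its part in the fall of Aldh1a1 was not tested. Ly6a, which encodes SCA1, averaged 512 ± 150.0 CPM in deleted MPP and 324 ± 54.6 CPM in control MPP (log2 fold change 0.65 ± 0.24, edgeR adjusted p = 0.596), and Kit averaged 703 ± 162 CPM in deleted and 1005 ± 175 CPM in control MPP (-0.52 ± 0.22, adjusted p = 0.609). Neither passed the threshold. The sum of 6 B cell markers was 134 to 372 CPM in deleted MPP, with Ms4a1 at 0, and 81.9 to 153 CPM in control MPP, and was higher in the deleted library of 4 of 4 litters. The sum of 7 T and NK cell markers was 63.2 to 155 CPM in deleted MPP and 138 to 213 CPM in control MPP, with Cd3e, Cd8a and Ncr1 at 0 in both groups and Cd3g at 0 in controls. The part of these sort and cell type markers in the Aldh1a1 values was not tested.

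The paralog Aldh1a7 was not higher in the groups in which Aldh1a1 was. It had 40, 37, 0 and 0 counts in deleted MPP of litters 1 to 4, and 49, 19, 48 and 22 counts in control MPP. The same libraries held 882, 790, 437 and 407 counts of Aldh1a1 in deleted MPP and 250, 162, 239 and 131 in control MPP. In HSC it had 3, 16, 2 and 2 counts in deleted libraries and 2, 37, 21 and 0 in controls, while Aldh1a1 had 1223 to 3904 and 656 to 1695. The control MPP libraries, with the lowest Aldh1a1 of the SMART-Seq groups, were thus the group in which each library had at least 19 counts of Aldh1a7. Its log2 fold change was -0.91 ± 1.09 between deleted and control MPP and 0.82 ± 0.92 between MPP and HSC of controls, each smaller than its error. HPC-1 had 1 count in all in deleted libraries and 10 in controls, all 10 of them in litter 2. With the counts of both genes summed as 1 gene, the difference between deleted and control MPP was 1.49 on the log2 scale, and that between MPP and HSC of controls -2.95.

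Aldh1a3, the retinal dehydrogenase best known from epithelia, was low and patchy. It had 0, 0, 28 and 0 counts in deleted HSC of litters 1 to 4 and 72, 12, 0 and 11 in control HSC. MPP had 13, 1, 2 and 0 counts in deleted and 4, 2, 0 and 0 in control libraries, and HPC-1 had 0, 9, 0 and 6 in deleted and 0, 0, 0 and 3 in control libraries. Each group had at least 1 library at 0 counts. Within populations only deleted against control HSC was tested, and it gave -1.79 ± 1.74 on the log2 scale. That value rested on single libraries, being -0.46 without control HSC of litter 1, -7.78 without deleted HSC of litter 3, the sole deleted HSC library with counts. These were its extremes over 13 alternatives. Control HSC of litter 1 also had 685 CPM of endothelial and stromal markers, against 15.9 to 30.4 CPM in the other control HSC. The part of these markers in its Aldh1a3 counts was not tested. The deletion effect differed from that in HSC by 2.98 ± 2.50 in MPP and by 4.16 ± 2.67 in HPC-1, and neither passed.

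Aldh2, the mitochondrial enzyme that clears acetaldehyde and protects stem cells from aldehyde damage, was the most abundant of the 8 genes. HSC held 307, 314, 363 and 527 CPM in deleted mice, against 377, 531, 452 and 503 CPM in controls. MPP held 406, 396, 209 and 446 CPM in deleted mice, against 406, 539, 381 and 491 CPM in controls. HPC-1 held 555, 618, 550.6 and 590.4 CPM in deleted mice, against 541, 593, 567 and 599.8 CPM in controls. The groups overlapped in each population, with log2 values of -0.30 ± 0.19 for HSC, -0.33 ± 0.24 for MPP and 0.01 ± 0.08 for HPC-1. The deleted MPP library was the lower of its litter in 4 of 4 litters, by 1.82 times in litter 3 and by very little in litter 1 (406 CPM in both). Between MPP and HSC it differed by less than the error, with -0.07 ± 0.27 in deleted and -0.04 ± 0.15 in control mice.

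Among the receptors, Rarb, the retinoic acid-inducible one, was lower on average in MPP than in HSC, with a wide spread between mice. HSC held 18.9, 27.7, 7.64 and 10.5 CPM in deleted mice and 4.59, 14.1, 13.7 and 5.13 CPM in controls. MPP held 3.65, 3.00, 12.2 and 9.49 CPM in deleted mice and 3.31, 2.90, 1.92 and 4.07 CPM in controls. The 2 high deleted MPP libraries were those of litters 3 and 4, and the other 2 lay among the controls, although the deleted library was the higher in 4 of 4 litters. Both high libraries stood apart in other ways, litter 3 in detected genes and litter 4 in neutrophil and monocyte markers. The part of this in Rarb was not tested. The fold changes on the log2 scale were 0.79 ± 0.50 in HSC and 1.21 ± 0.51 in MPP. Without the deleted MPP library of litter 3 the MPP value was 0.82. In HPC-1 Rarb was at 0.576 to 0.773 CPM in deleted and 0.457 to 1.20 CPM in control libraries (-0.23 ± 0.73).

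Between MPP and HSC, deleted mice gave a log2 fold change of -1.21 ± 0.56 for Rarb, with MPP lower in 3 of 4 mice and overlapping groups. In litters 3 and 4 the deleted mice had 12.2 and 9.49 CPM of Rarb in MPP and 7.64 and 10.5 CPM in HSC, so these mice showed little or no fall of Rarb while their Aldh1a1 was lower in MPP. In control mice Rarb was lower in MPP, at 3.05 ± 0.897 CPM, than in HSC, at 9.38 ± 5.23 CPM (SD, n = 4 each), and the groups did not overlap. The log2 fold change was -1.63 ± 0.44, or 3.1-fold lower, and -1.49 with the mouse as a block. In control mice of litters 1 and 4 the difference was small, at 1.39 and 1.26 times, and in those of litters 2 and 3 it was 4.86 and 7.13 times.

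Rara and Rarg ran the other way between populations, and neither passed the threshold over all genes in deleted or control mice. MPP was the higher in 4 of 4 deleted mice and in 4 of 4 control mice for both genes. For Rarg the ratio of MPP to HSC was as small as 1.05 in deleted mouse 4 and 1.07 in control mouse 2. In deleted mice the log2 fold changes were 0.67 ± 0.56 for Rara and 0.65 ± 0.57 for Rarg, and without HSC of mouse 4 they were 1.28 and 1.20. Rara was at 8.21 to 13.9 CPM in MPP and 5.74 to 7.34 CPM in HSC of control mice, without overlap, and the log2 fold change was 0.72 ± 0.27. Rarg was at 6.25 to 9.17 CPM in MPP and 3.42 to 7.24 CPM in HSC of control mice (0.60 ± 0.32).

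The deleted and control ranges of both receptors overlapped in HSC and in MPP. In HSC, Rara was at 4.52, 3.1, 2.77 and 10.9 CPM in deleted mice and at 6.30, 6.38, 5.74 and 7.34 CPM in controls (-0.28 ± 0.50). Rarg was at 2.91, 1.93, 2.25 and 6.82 CPM in deleted HSC and at 4.52, 7.24, 4.58 and 3.42 CPM in control HSC (-0.51 ± 0.57). For both genes the deleted HSC library of litter 4, with the highest neutrophil and monocyte marker sum in HSC, was the highest of its group, and the other 3 deleted libraries lay below every control. Without that library the log2 fold changes were -0.89 for Rara and -1.06 for Rarg, and the part of the marker sum in this was not tested. In MPP the fold changes were -0.31 ± 0.36 for Rara and -0.45 ± 0.31 for Rarg, and without the deleted library of litter 3 they were -0.07 and -0.33.

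In HPC-1, Rarg was low in deleted libraries relative to their littermates, without passing. Deleted HPC-1 libraries held 12.9, 14.1, 7.63 and 12.3 CPM of it, and control HPC-1 libraries 17.8, 18.1, 23.5 and 13.7 CPM. Deleted was the lower in 4 of 4 litters, and the groups overlapped only between 14.1 CPM in the deleted mouse of litter 2 and 13.7 CPM in the control of litter 4. Nothing is read from the run of 4 litters, since the share of all genes with such a run was not taken. The log2 fold change was -0.64 ± 0.23, or 1.56-fold lower. Other markers moved in the same libraries. The sum of 12 endothelial and stromal markers, with Lepr and Dcn at 0 in both groups and Lum at 0 in controls, was 169.6, 146, 133 and 169 CPM in deleted and 138, 118, 109 and 127.8 CPM in control HPC-1. The sum of 6 B cell markers, all detected, was 2374, 2156, 525 and 1433 CPM in deleted and 1161, 1217, 551 and 730.5 CPM in control HPC-1. The first was higher in deleted libraries in 4 of 4 litters and the second in 3 of 4, and their part in the Rarg values was not tested. Rara in HPC-1, at 14.1 to 33.2 CPM in deleted and 17.6 to 29.4 CPM in control libraries, gave -0.04 ± 0.24.

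Cyp26b1, the retinoic acid hydroxylase, was low in level and lower in MPP than in HSC in 8 of 8 mice. Deleted mice had 0.104, 0.250, 2.25 and 1.27 CPM in MPP, and 0.243, 5.18, 4.65 and 2.78 CPM in HSC (-1.76 ± 1.10). MPP was the lower in 4 of 4 deleted mice, and the ranges overlapped through HSC of mouse 1. In deleted mouse 1 the direction rested on 2 counts in MPP and 5 in HSC, which are too few to give one. In control mice 1 to 4 it was at 0.490, 0.229, 0.547 and 0 CPM in MPP, from 8, 3, 12 and 0 counts, and at 2.33, 3.88, 2.32 and 2.21 CPM in HSC, from 34, 45, 36 and 22 counts. The groups did not overlap, and the log2 fold change was -3.00 ± 0.75, or 8.01-fold lower in MPP. The deleted MPP of litters 3 and 4 were the 2 highest MPP libraries for Cyp26b1, as they were for Rarb. The library of litter 3 had the fewest detected genes of deleted MPP, and that of litter 4 the highest neutrophil and monocyte marker sum. The part of this in both genes was not tested. Deleted MPP libraries held 2, 4, 23 and 28 counts, and in the comparison of deleted with control MPP the gene fell under the filter on low counts. The deletion effect in MPP minus that in HSC was 1.27 ± 1.39, and that in HPC-1 minus that in MPP -2.15 ± 1.5. In HSC the groups overlapped (0.26 ± 0.80), as they did in HPC-1, at 0.105 to 0.611 CPM in deleted and 0.0762 to 0.802 CPM in control libraries (-0.60 ± 0.98).

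**Figure D3:**
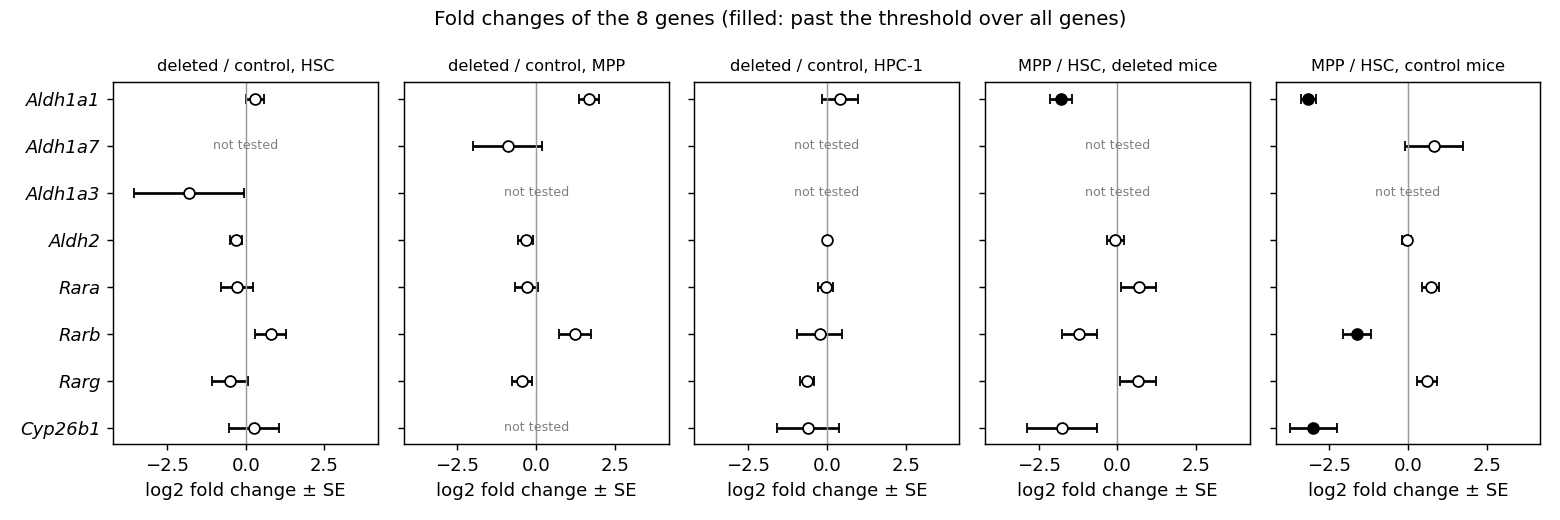
Log2 fold change (horizontal axis) with its SE for each gene in 5 comparisons, from the fits across all genes, with filled points where the gene passed the threshold over all genes. Aldh1a1 is filled at -1.79 and -3.16 for MPP over HSC in deleted and control mice, and Rarb (-1.63) and Cyp26b1 (-3.00) are filled in control mice.

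Counts against the threshold over all genes (edgeR quasi-likelihood test, Benjamini-Hochberg adjusted p under 0.05) are read beside the share of all tested genes that passed it, and since the genes were chosen with these contrasts known, nothing is read from them. Deleted against control, 0 of the 7 members tested in HSC, 0 of 6 in MPP and 0 of 6 in HPC-1 passed. Of all genes tested, 0.0073%, 0.029% and 0.0647% did, and in HSC that was Phf6 alone. Groups of libraries did not overlap for 0 of 7 members in HSC, 1 of 6 in MPP (Aldh1a1) and 0 of 6 in HPC-1, against 3.16%, 5.74% and 3.66% of all genes tested. Between MPP and HSC, 1 of 6 members passed in deleted mice, against 1.41% of all genes, and 3 of 7 in control mice, against 8.84%. All 4 calls were lower in MPP, as were 0.771% of all genes in deleted and 4.78% in control mice. Groups did not overlap for 1 of 6 members in deleted mice, against 11.7% of all genes, and for 4 of 7 in control mice, against 15.6%. Such a share was not taken for runs in the same direction over 4 of 4 litters or mice, so nothing is read from those. No member passed for the differences of deletion effects between populations, where 0% of the 14561, 14970 and 14909 genes did so in edgeR, with 417, 518 and 668 at an unadjusted p under 0.05 and 2, 11 and 7 by DESeq2. The alternatives reuse the same libraries, so the calls of members in them are a description too and lend no support. The fall of Aldh1a1 in control mice passed in 13 of 13 alternatives. In deleted mice it passed in 6 of 13, and leaving out 1 library ended the call for each of the 8 libraries but the HSC of mouse 4, with log2 fold changes between -1.93 and -1.55. Aldh1a1 in MPP, deleted against control, ranked 19 of 13806 genes by p without passing in edgeR, and it passed with DESeq2 and without the deleted mouse of litter 4, with values of 1.49 to 1.91 over all alternatives. The fall of Rarb in control mice did not pass with the mouse as a block or in 6 of 8 fits that left out 1 library, each except those without HSC of control mouse 1 or 4. That of Cyp26b1 did not pass in 3 of 8 such fits, those without control MPP of mouse 1 or 2 or control HSC of mouse 2.

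Set against each other per kilobase of the gene length in the deposited table, the levels of the genes had the same leader in all 6 groups. Aldh2 averaged 171 CPM per kb in deleted HSC, 211 in control HSC, 165 in deleted MPP and 206 in control MPP, and lay above all other members in each. Aldh1a1 came next in HSC, with 65.6 CPM per kb in deleted and 53.3 in control mice, and in MPP, with 19.3 in deleted and 5.99 in control mice, apart from its neighbours in the order each time. Among all genes with a count, Aldh1a1 per kb exceeded 90.0% in deleted HSC and 87.5% in control HSC, and 69.5% in deleted MPP and 48.8% in control MPP. Rarb was the third in deleted HSC (5.83 CPM per kb), apart from Rara, and in control HSC (3.38) and deleted MPP (2.55), where its range overlapped that of Rara. In control MPP, Rara (2.57) and Rarg (2.35) preceded Rarb (1.10), and Rarg and Rarb did not overlap. Cyp26b1, Aldh1a7 and Aldh1a3 took the last 3 places in each group, at 1.01 CPM per kb or less. The order within HPC-1 is given by itself, since the kit and that population cannot be told apart. Rara and Rarg followed Aldh2 there, at 5.47 and 3.66 CPM per kb in deleted and 5.62 and 5.69 in control libraries. Aldh1a1 came after them with 1.07 in deleted and 0.809 in control libraries. Aldh1a1 there exceeded 30.9% of genes in deleted and 27.7% in control libraries.

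The wider retinoid pathway was read from lists of 58 other genes by role, of which 29 were tested in MPP against HSC of control mice. Of these, 1 was higher, 3 were lower and 25 did not pass, so 13.8% were called, where 8.84% of all genes tested were, and the median log2 fold change was 0.03, beside -0.01 over all genes. The lists were chosen with earlier results of these data known, so these shares and the adjusted p-values of list genes are a description. Nothing is read from the difference between the shares. Of the 16 retinol dehydrogenases and retinal reductases 9 were tested and 1 was higher, Dhrs3, which reduces retinal back to retinol. It was at 26.2, 19.6, 19.2 and 20.3 CPM in MPP and at 5.2, 5.94, 5.41 and 4.93 CPM in HSC of control mice, without overlap (1.98 ± 0.22, adjusted p = 0.000152). Dhrs3 thus ran opposite to Aldh1a1 between MPP and HSC. In deleted mice it was at 24.3, 19.1, 13.9 and 54.8 CPM in MPP and 7.04, 9.40, 5.32 and 20.3 CPM in HSC, and did not pass (1.39 ± 0.52, adjusted p = 0.245).

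The lower ones were 2 known retinoic acid targets and a carrier. Of the 10 known targets 4 were tested, and not all ran that way: Ccr9 was at 0.775 to 2.23 CPM in MPP and 0 to 0.753 CPM in HSC of control mice, without overlap (2.34 ± 1.032, adjusted p = 0.206). Tgm2, tissue transglutaminase, was at 50.5, 101, 110.4 and 89.3 CPM in MPP and 188, 265, 396 and 328 CPM in HSC of control mice (-1.75 ± 0.26, adjusted p = 0.00106). In deleted mice it averaged 52.0 ± 26.3 CPM in MPP and 205 ± 70.9 CPM in HSC (-2.0 ± 0.43, adjusted p = 0.0459), and 7 of the 8 fits without 1 library ended that call, the exception being without MPP of mouse 3. Cd38, an NAD-consuming surface enzyme, averaged 4.19 ± 1.27 CPM in MPP and 14.8 ± 7.08 CPM in HSC of control mice (-1.83 ± 0.37, adjusted p = 0.00789). In deleted mice its fold change was -2.26 ± 0.69 (adjusted p = 0.143). Fabp5, which carries fatty acids and retinoic acid to nuclear receptors, averaged 4.26 ± 1.64 CPM in MPP and 11.8 ± 3.40 CPM in HSC of control mice (-1.47 ± 0.37, adjusted p = 0.023), and did not pass without MPP of control mouse 1, HSC of control mouse 2 or HSC of control mouse 4. In deleted mice it was -1.49 ± 0.39 (adjusted p = 0.0898).

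**Figure D4:**
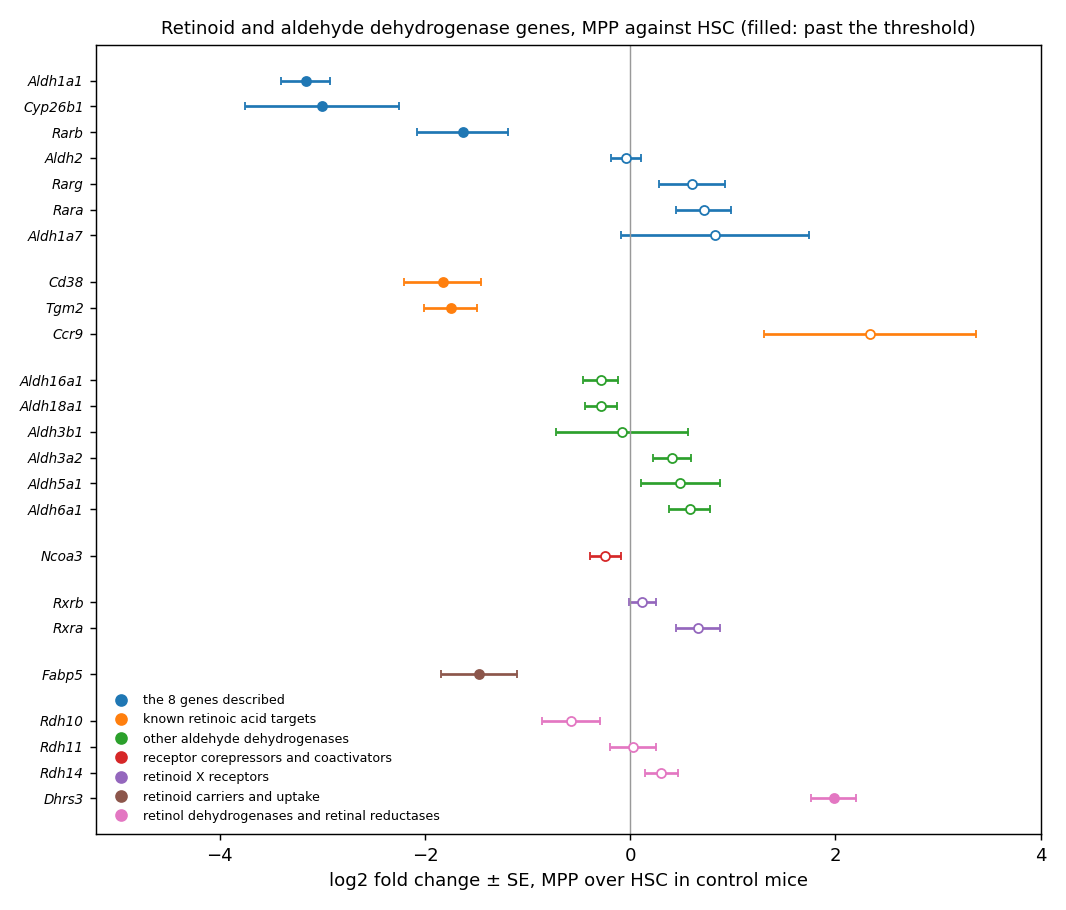
Log2 fold change with its SE (horizontal axis) of MPP over HSC in control mice for the genes described and for the other retinoid and aldehyde dehydrogenase genes named in the text, coloured by role, with filled points past the threshold over all genes. Of the genes outside the 8, Dhrs3 (1.98) is filled on the higher side, and Tgm2 (-1.75), Cd38 (-1.83) and Fabp5 (-1.47) on the lower side.

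Other roles did not pass in that comparison. Of the 3 retinoid X receptors 2 were tested: Rxra, at 24.3 ± 2.65 CPM in MPP and 15.3 ± 4.04 CPM in HSC, gave 0.66 ± 0.22 (adjusted p = 0.0818), and Rxrb, at 157 ± 18.3 CPM in MPP and 144 ± 17.2 CPM in HSC, gave 0.12 ± 0.13. All 10 corepressors and coactivators were tested and 0 passed, with log2 fold changes between -0.24 and 0.29. Rdh10, a retinol dehydrogenase that works upstream of the ALDH1A enzymes, was at 10.1 ± 2.63 CPM in MPP and 15 ± 4.78 CPM in HSC (-0.58 ± 0.28, adjusted p = 0.259). The other genes for retinoic acid synthesis and breakdown, Aldh1a2 and Aldh8a1 and the hydroxylases Cyp26a1 and Cyp26c1, were filtered out for low counts. The plasma carriers Rbp4 and Ttr, the receptor Stra6 and the storage enzyme Lrat had 0 counts in all 24 libraries.

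Of 29 genes of the wider pathway tested for deletion in each population, 0 passed for HSC, MPP or HPC-1. Since 0.0073%, 0.029% and 0.0647% of all genes tested did, the 0 is no result about the pathway. The genes had median log2 fold changes of -0.07, 0.07 and 0.03 beside 0.0063, 0.019 and -0.0037 over all genes. In HSC the lowest unadjusted p was that of Rdh11, a retinal reductase (-0.88 ± 0.36, adjusted p = 0.998). In MPP the 2 lowest were those of Ccr9 and Rdh14. Ccr9, a gut-homing chemokine receptor induced by retinoic acid in lymphocytes, was at 2.19, 4.13, 8.50 and 2.49 CPM in deleted MPP and at 0.858, 0.841, 0.775 and 2.23 CPM in control MPP (1.87 ± 0.60, adjusted p = 0.553). Rdh14, a retinol dehydrogenase, was at 108.6 to 308 CPM in deleted MPP and 90.6 to 121 CPM in control MPP (0.69 ± 0.32, adjusted p = 0.617), with its highest value in the deleted mouse of litter 3. In HPC-1 they were Tgm2, at 3.92, 3.92, 1.88 and 9.74 CPM in deleted and 6.80, 10.2, 17.1 and 16.2 CPM in control libraries (-1.37 ± 0.46, adjusted p = 0.766), and the coactivator Ncoa3 (0.24 ± 0.09, adjusted p = 0.796). Tgm2 was on the lower side in deleted cells of HSC (-0.52 ± 0.26) and MPP (-0.76 ± 0.41) too, passing in none of the 3 populations.

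The other 14 aldehyde dehydrogenases handle amino acid, lipid and folate aldehydes. Of the 11 tested in each comparison between groups, 0 passed for deletion in any population, where 0.0073% to 0.0647% of all genes did, or for MPP against HSC, where 1.41% did in deleted and 8.84% in control mice. At these shares a list of 11 genes with 0 calls does not stand apart. The ones with the lowest unadjusted p between MPP and HSC of controls were Aldh6a1, of valine breakdown (0.58 ± 0.20, adjusted p = 0.104), and Aldh3a2, of fatty aldehydes (0.41 ± 0.19, adjusted p = 0.226), both on the higher side. In deleted mice they were Aldh18a1, of proline synthesis (-0.77 ± 0.29, adjusted p = 0.244), and Aldh3a2 (0.47 ± 0.20, adjusted p = 0.324). Between deleted and control MPP they were Aldh18a1 (-0.51 ± 0.25, adjusted p = 0.620) and Aldh16a1 (-0.38 ± 0.22, adjusted p = 0.636). HSC had Aldh5a1 (1.05 ± 0.56) and Aldh3b1 (1.24 ± 0.70), with an adjusted p of 0.998 each, and HPC-1 had Aldh18a1 (-0.18 ± 0.11) and Aldh3a2 (0.18 ± 0.12), with an adjusted p of 0.999 each.

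Among 14560 genes, those whose log2 CPM ran most like that of Aldh1a1 over the 16 HSC and MPP libraries included Rab27b, Mycn, Lhfp, Prkar2b and Ache, with Pearson r between 0.90 and 0.92, and between 0.87 and 0.88 without the 2 libraries farthest from the median of Aldh1a1. The libraries fall into HSC and MPP, come in pairs from the same mouse and share their preparation, so r carries the difference between the populations and is a description. Within the 8 HSC libraries r was 0.95 for Prkar2b, a regulatory subunit of protein kinase A, 0.71 for Rab27b, a secretory small GTPase, and 0.67 for the transcription factor Mycn. It was 0.05 for Ache there. Within the 8 MPP libraries, where deleted and control mice differed in Aldh1a1, r was 0.78 for Prkar2b, 0.78 for Mycn, 0.71 for Ache and 0.58 for Rab27b. The lowest values over the 16 libraries were those of Sox4 (-0.92), P2ry14, Gm2a and Septin1 (each -0.90). Of the other members, Rarb had 0.72 and Cyp26b1 0.61, Aldh1a7 had -0.29, and Rara and Rarg had -0.66 each. With each group centred on its own mean, none of Rab27b, Mycn, Lhfp, Prkar2b and Ache was among the 6 highest, Rarb was at 0.15 and Aldh1a7 at 0.63. For Aldh1a7, whose counts were few, r was 0.47 within the HSC libraries and -0.22 within the MPP libraries.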

How the data were processed

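RNA from sorted HSC, MPP and HPC-1 of 8 mice was sequenced as 80 bp paired-end reads, per the labels' protocols. The deposited values are raw counts per Entrez gene ID, which the authors made using featureCounts, with bcl2fastq and the mm10 build also listed in the submitters' processing notes; aligner, annotation, versions and strand setting were not given in the sources used here. The 24 sample files matched the series table exactly, and no per-sample column was left unused. Of 27179 IDs, 25275 were named from RefSeq (GRCm38.p6) and 1904 were not. No row without a gene ID was present in the table. Replicate libraries differed by more than sampling noise (chi-square per degree of freedom 16.1 to 234).

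Groups were compared with edgeR 4.0.16 (R 4.3.3): TMM factors, filterByExpr (minimum count 10, minimum total 15), robust quasi-likelihood fits of the groups compared, and Benjamini-Hochberg adjustment over all genes tested, with a threshold of 0.05. Standard errors were taken as |log2 fold change| over √F. CPM were scaled over HSC and MPP together and over HPC-1 alone, and log2 CPM used a prior count of 2. The code was tested on simulated data. Alternatives were other size factors, no filter, DESeq2 1.42.0, a litter or mouse block, Aldh1a1 and Aldh1a7 summed, and each library left out. No alternative was added later.

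The members and lists were chosen with earlier results of these data known. Members are all named, with Phf6. Of the other retinoid and aldehyde lists, up to 6 genes past the threshold are named per comparison and list, or else the 2 with the lowest p; Slamf1, Ly6a, Kit, Rxra, Rxrb, Rdh10, some deletion and deleted-mouse values of named genes, and genes without counts were added for their role. Ccr9 between MPP and HSC was added after its values were seen. Genes most like Aldh1a1 are the 6 highest and 4 lowest in Pearson r. Some genes these rules pick are not reported here. The labels give a shared litter for deleted and control mice of 1 number and the same mouse across populations, so numbers pair the samples. Deviations from group means of paired libraries correlated at 0.00 to 0.38 between littermates and at 0.02 to 0.39 between HSC and MPP of a mouse.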

Additional observations from a re-analysis of the deposited data

Results flagged for a closer look

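In 6 of 48 groups of 4 libraries 1 library lay far from the other 3. The rule's chance rate of about 1 in 20 groups (2.4 of 48) does not hold for low counts. A group with counts in 1 library alone is flagged whatever the count, so no excess is read from the 6. Aldh1a7 was at 0.813 CPM in deleted HSC of litter 2, with 0.15 CPM the nearest of the others. In HPC-1 it was at 0.0359 CPM in the deleted mouse of litter 1 and at 0.401 CPM in the control of litter 2, with 0 counts in the other libraries of each group. Aldh1a3 was at 2.10 CPM in deleted HSC of litter 3 and at 0.114 CPM in control HPC-1 of litter 4, with 0 counts in the rest of each group. Cyp26b1 was at 3.88 CPM in control HSC of litter 2, with 2.33 CPM the nearest. Of these, 3 rest on 10 counts or fewer.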

How the results depend on the processing

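Counts of genes past the threshold depended on the test. No fold change that passed turned its direction in any alternative. Some that did not pass turned, such as Cyp26b1 for deleted against control HSC, with log2 values between -0.17 and 0.66. With DESeq2 the counts for deleted against control were 14 for HSC, 96 for MPP and 68 for HPC-1, against 1, 4 and 9 in edgeR. They were 843 for MPP against HSC in deleted mice, against 196, and 2, 11 and 7 for the differences of deletion effects (MPP minus HSC, HPC-1 minus HSC and HPC-1 minus MPP), against 0. Without the filter on low counts HPC-1 had 20. Leaving out 1 library gave 0 to 1 genes for HSC, 2 to 22 for MPP (22 without the deleted mouse of litter 3), 1 to 11 for HPC-1, 54 to 208 for MPP against HSC in deleted mice, 832 to 1338 in controls, and 0 to 1 for HPC-1 minus HSC. The HSC gene was Phf6 itself, and its call was lost without any of the 4 control libraries or the deleted mouse of litter 2 or 3. Between MPP and HSC of deleted mice, the count was 54 to 88 without any library except the HSC of mouse 4 and the MPP of mouse 3. In HPC-1 it was 1 without the deleted mouse of litter 1 or the control of litter 4, 2 without the control of litter 2, 3 without that of litter 3 and 4 without the deleted mouse of litter 2. The single call for HPC-1 minus HSC came without HSC of the deleted mouse of litter 2 or of the control of litter 4. The cause of these shifts was not tested.

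With the replicate block, in which samples are paired by litter or mouse, the counts were 0 for HSC, 6 for MPP, 60 for HPC-1, 293 for MPP against HSC in deleted mice and 2109 in controls, and 0 for each difference of effects. Of the members' calls the block ended that of Rarb between MPP and HSC of controls and no other. Levels under 0.302 CPM can rest on 3 counts in the shallowest library, which limits Aldh1a7, Aldh1a3 and Cyp26b1 most.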
